A study of Mus musculus with 24 samples.

Results

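The regions described here are 878 binding sites of the transcription factor SOX9 in the retina of mice at postnatal day 2 (P2). They were selected on the P2 peak lists themselves: a P2 SOX9 peak was kept when it shared no base with any P2 peak of H3K4me3 and none with any P2 peak of SOX8. The rule kept 878 of 5476 P2 SOX9 peaks, out of 349901 peaks in the 8 lists of the series. The missing H3K4me3 and SOX8 peaks at P2 are therefore the choice, not a result. The study profiled wild-type mouse retina at P2 and P17 by CUT&RUN, in which an antibody directs a nuclease to cut and release the DNA around its target. Each reaction used 600000 nuclei of whole retina, so all retinal cell types were sampled together. At each age there were 2 libraries for SOX9, 4 for SOX8, 2 for H3K4me3, 2 for H3K27ac and 2 for IgG, 24 in all. Each target other than IgG has 1 peak list per age. The SOX8 libraries of each age name 2 different antibodies, and their 1 list is named as combined. How the 2 were combined is not given. The labels name no altered allele and no treatment in any group, and do not say whether libraries came from separate animals.

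SOX9 is an HMG-box transcription factor of the SoxE group, to which SOX8 also belongs. In the retina it is made by dividing progenitors and is kept in Müller glia, the radial glia of the mature tissue, as neurons leave the cell cycle. H3K4me3 is found on nucleosomes at active promoters. H3K27ac is found at enhancers in use as well as at such promoters, so a SOX9 peak with H3K27ac and without H3K4me3 has the marks usual for an enhancer. P2 falls while late-born retinal cells are still being produced, and by P17 the retina has its mature layers.

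The lists carry no heights: the score field is 0 in every peak, and no list names a replicate. The values below are therefore positions, widths, overlaps and distances, and no p-value is given. Shares carry a 95% Wilson interval, which covers counting error alone and treats peaks as separate although neighbouring ones share a gene. The lists differ greatly in length, from 2400 peaks for P17 SOX8 and 2855 for P17 SOX9 to 287845 for P2 H3K27ac. The P2 H3K27ac peaks cover 525 Mb, against 173 Mb for the 29909 peaks at P17. A site missing from a shorter list may have been bound or marked below the level at which the authors called peaks.

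The name distal was checked against the 21887 protein-coding genes of the RefSeq gene table. The centres of the 878 sites lay a median of 12.8 kb from the nearest end of such a gene (quartiles 3.64 and 47.1 kb), against 0.37 kb for the 2106 P2 SOX9 peaks that overlapped H3K4me3 but not SOX8. A gene body was overlapped by 547 sites (62.3%, 59.0 to 65.4), where the background over all P2 SOX9 peaks was 90.0%. The other 331 sites lay a median of 21.0 kb from the closest gene and up to 793 kb from it. An end of a gene fell inside 160 sites (18.2%, 15.8 to 20.9; background 70.5%), so those 160 are not distal in this sense. In a promoter table that covers 17492 of the genes and also lists starts within gene bodies, 142 sites had a start inside, 41 of them without a gene end. In all, 201 of the 878 sites held a gene end or a listed start. The promoter table held no gene of chromosome 18, so no start could be counted at the 24 sites there. The next P2 H3K4me3 peak lay a median of 41.9 kb away and the next P2 SOX8 peak 93.6 kb away. The sites were 708 to 9944 bp wide, with a median of 2846 bp against 2669 bp over the whole P2 SOX9 list.

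**Figure D1:**
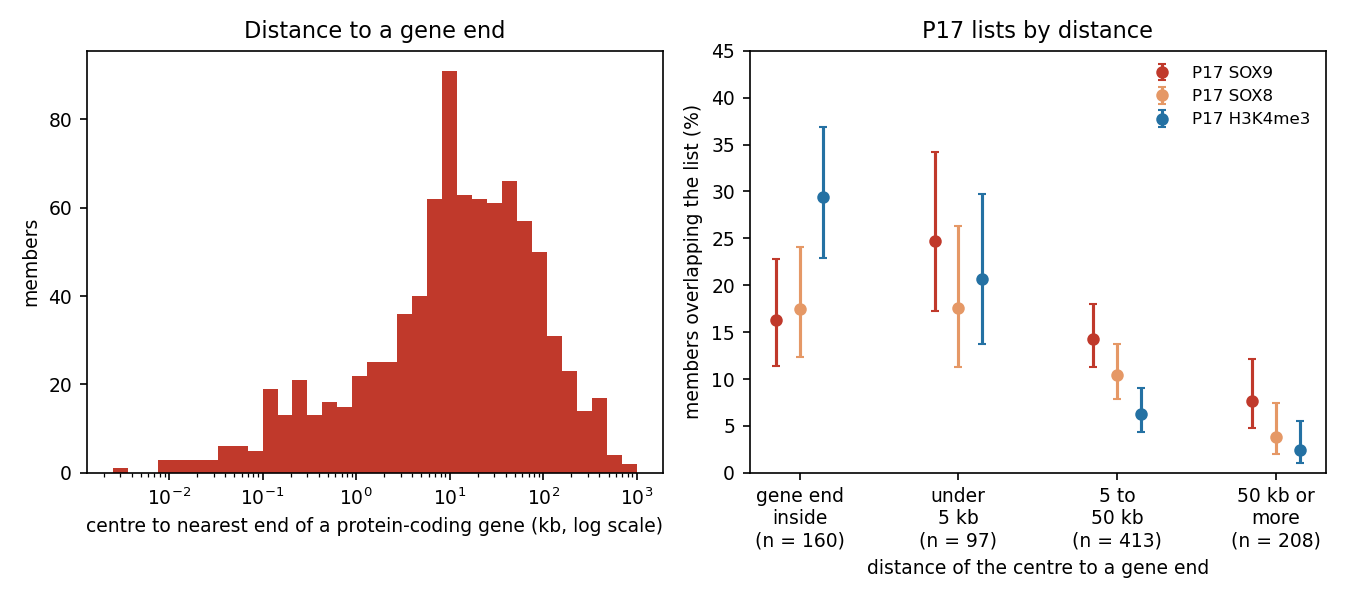
Left: distance from the centre of each of the 878 sites to the nearest end of a protein-coding gene, in kb on a log axis, with the count of sites on the vertical axis. Right: percentage of sites overlapping a P17 SOX9, SOX8 or H3K4me3 peak in 4 distance classes, with 95% Wilson intervals as bars; P17 SOX9 was at 24.7% of sites under 5 kb and 7.69% of sites 50 kb or more away.

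At the edge of the rule, the site in Nxph4 (a neurexophilin gene; chr10:127526283-127529369, 3087 bp) ended 155 bp from an H3K4me3 peak. A site in Bahcc1 (chr11:120241721-120244671) ended 194 bp from one, and the site in Gpx4 (chr10:80047723-80049686) lay 239 bp from a SOX8 peak. Just outside the rule were a 122 bp peak nearest to Alkbh8 that shared 121 bp with SOX8, a peak at S1pr2 with 319 bp of H3K4me3 and a peak at Fam110a with 406 bp of H3K4me3. These 6 peaks are given as a description of the threshold.

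Sequence was at hand only for sites that contain a gene start. In all, 165 promoter windows of 143 genes lay wholly inside 139 sites. The 250 bases before the start are shown for the 7 widest of these sites, since they are the stretches of bound DNA that can be read base by base. They come from the RefSeq promoter table of GRCm38.p6 and run 5′ to 3′ on the strand of the gene. Capitals mark AACAAT or ACAAAG, short cores recognised by SOX proteins, or their reverse complements ATTGTT and CTTTGT.
Lrp8, chr4:107830703-107830952, plus strand: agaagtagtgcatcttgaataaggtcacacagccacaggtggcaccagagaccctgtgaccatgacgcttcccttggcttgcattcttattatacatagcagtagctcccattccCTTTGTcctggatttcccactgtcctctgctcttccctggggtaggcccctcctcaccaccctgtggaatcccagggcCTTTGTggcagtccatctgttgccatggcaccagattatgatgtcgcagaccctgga
Gng8, chr7:16891536-16891785, plus strand: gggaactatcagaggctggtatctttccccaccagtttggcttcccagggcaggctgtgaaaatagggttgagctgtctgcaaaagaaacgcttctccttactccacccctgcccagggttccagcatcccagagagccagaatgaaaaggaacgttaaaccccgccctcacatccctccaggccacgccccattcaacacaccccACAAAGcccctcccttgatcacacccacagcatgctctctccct
Slc6a9, chr4:117849100-117849349, plus strand: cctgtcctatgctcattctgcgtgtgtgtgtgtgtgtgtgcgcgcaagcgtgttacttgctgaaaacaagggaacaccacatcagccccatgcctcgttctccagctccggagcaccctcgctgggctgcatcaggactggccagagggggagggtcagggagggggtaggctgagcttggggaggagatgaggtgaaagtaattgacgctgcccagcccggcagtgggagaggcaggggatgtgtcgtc
2900026A02Rik, chr5:113163314-113163563, minus strand: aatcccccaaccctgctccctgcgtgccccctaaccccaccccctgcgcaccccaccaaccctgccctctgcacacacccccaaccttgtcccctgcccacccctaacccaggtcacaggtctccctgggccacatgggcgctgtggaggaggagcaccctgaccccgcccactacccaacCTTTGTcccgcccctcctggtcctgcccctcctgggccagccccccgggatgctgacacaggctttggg
Gdf15, chr8:70632096-70632345, minus strand: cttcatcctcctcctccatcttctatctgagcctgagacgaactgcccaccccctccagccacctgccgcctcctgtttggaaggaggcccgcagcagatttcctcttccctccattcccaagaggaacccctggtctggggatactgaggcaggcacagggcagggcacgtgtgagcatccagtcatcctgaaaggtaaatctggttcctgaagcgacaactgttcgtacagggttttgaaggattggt
Col9a2, chr4:121039316-121039565, plus strand: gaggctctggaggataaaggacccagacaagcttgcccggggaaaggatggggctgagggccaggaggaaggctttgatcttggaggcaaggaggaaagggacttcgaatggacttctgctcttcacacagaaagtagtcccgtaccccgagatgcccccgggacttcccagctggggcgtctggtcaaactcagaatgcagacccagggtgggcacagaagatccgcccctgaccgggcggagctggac
Egr2, chr10:67535249-67535498, plus strand: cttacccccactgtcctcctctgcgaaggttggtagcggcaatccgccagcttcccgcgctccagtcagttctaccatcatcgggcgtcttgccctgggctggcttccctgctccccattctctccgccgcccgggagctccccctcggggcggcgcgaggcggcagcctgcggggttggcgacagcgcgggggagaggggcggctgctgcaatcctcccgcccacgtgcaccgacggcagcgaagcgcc
The Lrp8 window held ACAAAG on its opposite strand at 2 places, and the windows of Gng8 and 2900026A02Rik held it once each. The other 4 windows held neither motif, which says only that these letters are not in these bases. Over all 165 windows inside the sites, AACAAT was in 8 (4.85%, 2.48 to 9.27) and ACAAAG in 23 (13.9%, 9.47 to 20.05). Among all 21263 windows of the same 250 bases, 8.22% held AACAAT and 14.9% held ACAAAG, counted on both strands and with each motif counted apart from the other. A match is a description of the letters and not a mapped binding site.

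The 7 sites behind these windows had different lists at P17. The Lrp8 site (chr4:107826348-107836217, 9870 bp; Lrp8 encodes a receptor for reelin) shared 4842 bp with P17 SOX9, 4714 bp with P17 SOX8 and its whole length with P17 H3K27ac. The Slc6a9 site (5208 bp; a glycine transporter) shared 4567 bp with P17 SOX9, and P17 H3K27ac covered it whole. The Gng8 site (5394 bp; a G-protein gamma subunit) shared 5234 bp with P17 SOX9 but had no P17 H3K27ac peak. At Gdf15 (4389 bp; a secreted stress-induced member of the TGF-beta superfamily) P17 SOX8 covered 2205 bp, without P17 SOX9. The Egr2 site (4331 bp; a zinc finger factor of hindbrain and Schwann cells) lay whole within a P17 SOX9 peak and had no H3K27ac peak at either age. The sites at Col9a2, a cartilage collagen gene, and 2900026A02Rik were in no P17 list. Thus 4 of the 7 had SOX9 at P17, 2 had SOX8, 3 had H3K27ac and none had H3K4me3. The 7 were picked by width, and over all 878 sites the shares were 14.2%, 10.9%, 67.3% and 11.2%.

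At P2 nearly all sites were acetylated. A P2 H3K27ac peak was present at 861 of the 878 (98.1%, 96.9 to 98.8), close to the background of 99.4% over all P2 SOX9 peaks. How far the mark extended did set the sites apart from P2 SOX9 peaks at H3K4me3. The H3K27ac peak over a site had a median width of 7149 bp (quartiles 2957 and 16570 bp), against 2574 bp for H3K4me3 peaks without SOX8 and 2992 bp for those with SOX8. P2 H3K27ac covered 585 sites whole (66.6%, 63.4 to 69.7; background 41.4%), which is 32.1 percentage points above the H3K4me3 peaks without SOX8 (95% Newcombe interval 28.3 to 35.7). Within 10 kb of the centre, a window of 20 kb, P2 H3K27ac peaks took up a median of 13.8 kb (quartiles 7.89 and 18.4), against 5.90 kb and 6.25 kb at the groups of H3K4me3 peaks without and with SOX8. The 226 P2 SOX9 peaks outside H3K4me3 that did overlap SOX8 had a wider extent still, with a median of 16.1 kb in the window and an H3K27ac peak of 9462 bp. H3K27ac peaks wider than 10 kb lay over 338 sites.

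The 17 sites without P2 H3K27ac included 5 of 3908 to 5094 bp, the widest of them at Kazald1. That at Olfr161, an olfactory receptor gene on chromosome 16, lay 356 kb from the gene and was in no P17 list. At Tfeb, a regulator of lysosomal genes, P17 SOX8 covered 1483 bp of the site (4625 bp). At Egr2 the P17 SOX9 peak was described above, and the sites at Kazald1 and Trpm8, a cold-sensing ion channel gene, overlapped no P17 peak.

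At P17, SOX9 was found again at few of the sites. A P17 SOX9 peak overlapped 125 of 878 (14.2%, 12.1 to 16.7), below the background of 31.1% over all P2 SOX9 peaks. The difference from the 226 peaks outside H3K4me3 with SOX8 (27.9%) was -13.6 percentage points (Newcombe interval -20.2 to -7.67). It differed little from the 2106 peaks at H3K4me3 without SOX8 (15.5%), with an interval of the difference from -3.98 to 1.59 points. At the 2266 peaks with both H3K4me3 and SOX8 the share was 52.5%. Among P2 SOX9 peaks, the share with SOX9 at P17 was therefore lower without P2 SOX8 than with it, both inside and outside H3K4me3. Where SOX9 was found at both ages, the P17 peak was the wider at 115 of 125 sites, with a median of 6282 bp against 3166 bp at P2. The whole P17 SOX9 list was also wider than the P2 list, with medians of 5336 and 2669 bp.

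**Figure D2:**
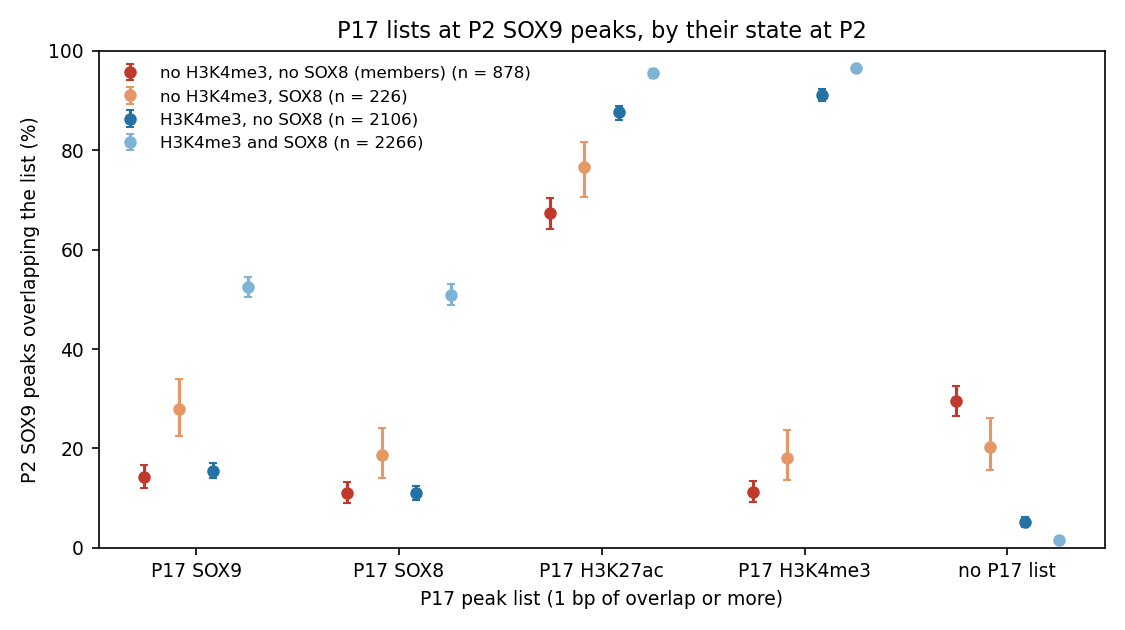
Percentage of P2 SOX9 peaks that overlapped each P17 list, for the 878 sites (red) and the other 3 groups of P2 SOX9 peaks defined by P2 H3K4me3 and SOX8; bars are 95% Wilson intervals. The red points lie close to those of H3K4me3 peaks without SOX8 for P17 SOX9 and SOX8 (14.2% against 15.5%, 10.9% against 11.0%) and far below them for P17 H3K4me3 (11.2% against 91.1%).

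SOX8, absent from the sites at P2 by the rule, overlapped 96 of them at P17 (10.9%, 9.04 to 13.2; background 27.8%). The share was 11.0% at H3K4me3 peaks without SOX8 at P2, an interval of the difference from -2.40 to 2.53 points. Of these 96 sites, 51 also had P17 SOX9 and 45 had SOX8 alone. Either factor was present at P17 at 170 sites (19.4%, background 39.0%) and both at the 51 (5.81%, background 19.9%). Seen from the other side, 124 of 2855 P17 SOX9 peaks (4.34%) and 97 of 2400 P17 SOX8 peaks (4.04%) lay over the sites.

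H3K27ac at P17 overlapped 591 sites (67.3%, 64.1 to 70.3; background 87.2%). The difference from the H3K4me3 peaks without SOX8 was -20.3 percentage points (interval -23.7 to -16.9), and that from the peaks outside H3K4me3 with SOX8 was -9.24 points (-15.2 to -2.57). Most often the mark came without any other P17 list, at 386 sites (44.0%). A further 259 sites (29.5%, 26.6 to 32.6; background 8.16%) were in no P17 list at all. P17 H3K27ac covered 364 sites whole (41.5%, background 58.4%), against 585 at P2. The P17 list holds 29909 peaks and the P2 list 287845, so these counts do not compare the ages on equal terms. With only the widest 29909 peaks of the P2 list, P2 H3K27ac overlapped 71.4% of the sites, beside 67.3% at P17.

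H3K27ac at P17 went along with P17 SOX peaks. It was present at 49 of the 51 sites with both factors (96.1%, 86.8 to 98.9), at 57 of 74 with SOX9 alone (77.0%, 66.3 to 85.1), at 36 of 45 with SOX8 alone (80.0%, 66.2 to 89.1) and at 449 of 708 with neither (63.4%, 59.8 to 66.9). Within the 20 kb window, P17 H3K27ac took up a median of 15.3 kb at sites with both factors, 11.7 kb with SOX9 alone, 7.38 kb with SOX8 alone and 3.41 kb with neither. At P2 the same 4 classes had 15.3, 16.1, 12.2 and 13.6 kb. In the same order, their median distances to a gene end were 5.91, 10.8, 6.21 and 15.7 kb. Their median widths were 3367, 3114, 3496 and 2753.5 bp. How much of the order in P17 H3K27ac goes with place or width was not tested.

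Over all 878 sites the P17 median in the window was 4.59 kb (quartiles 0.04 and 11.8), against 13.8 kb at P2. H3K27ac took up less of the window at P17 around 655 sites (74.6%, background 52.0%) and more around 190. At 219 sites no base of the window was in a P17 H3K27ac peak, against 3 sites at P2. The P2 list is the longer by far, so the comparison was repeated with its widest 29909 peaks, the number in the P17 list. This setting was planned for the overlap share and coverage at P2, and was applied to the window after seeing the data. These cover 195 Mb, and the P2 median in the window was then 10.04 kb. On that basis 487 sites (55.5%, background 25.9%) had more at P2 and 305 had more at P17. At H3K4me3 peaks the same setting gave more at P2 for 18.7% of those without SOX8 and 17.7% of those with it. The contrast with the sites and the background is partly set by the choice by width, since no P2 peak under 3265 bp was kept. The median P2 H3K27ac peak was narrower than that at both H3K4me3 groups and wider at the sites. With the setting, the P2 medians in the window were 0 and 2.935 kb at the H3K4me3 groups without and with SOX8. The P17 list was used in full.

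**Figure D3:**
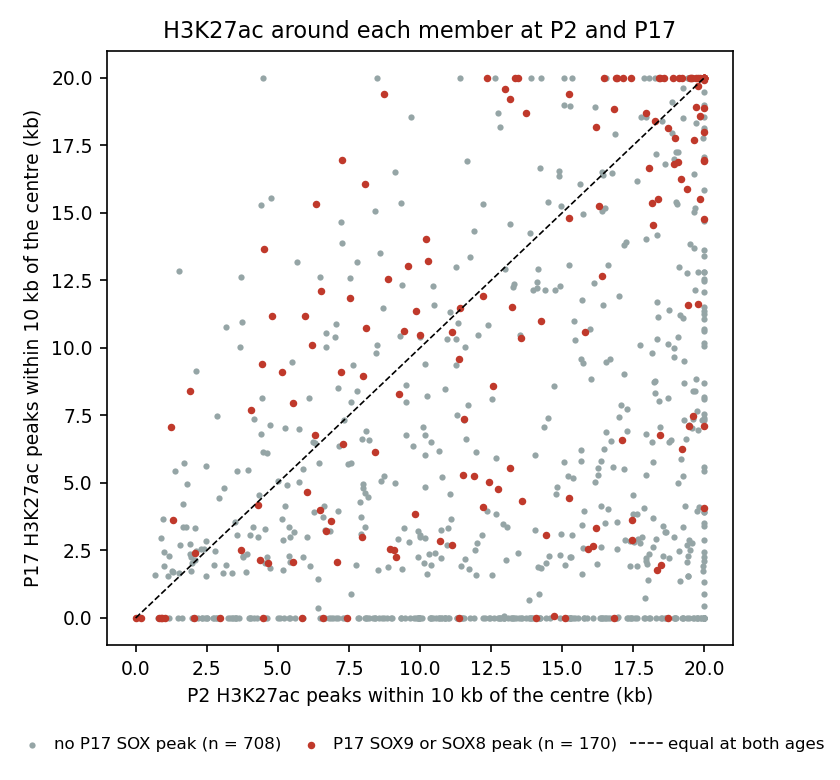
Each point is 1 of the 878 sites: length of P2 H3K27ac peaks (horizontal, kb) and of P17 H3K27ac peaks (vertical, kb) within 10 kb of its centre, with the dashed line marking equal length. Points lie below the line at 655 sites; the 170 sites with a P17 SOX9 or SOX8 peak are in red, and the row at 0 on the vertical axis holds the 219 sites with no P17 H3K27ac in the window.

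H3K4me3 appeared at P17 at 98 sites (11.2%, 9.25 to 13.4; background 77.5%). These were mostly near genes: 47 of the 160 sites with a gene end inside had it (29.4%, 22.9 to 36.8), against 5 of the 208 sites at 50 kb or more (2.40%, 1.03 to 5.50). It was at 19 of the 51 sites with both P17 factors (37.3%, 25.3 to 51.0) and at 63 of the 708 with neither (8.90%). Among the 5 widest of the 98, H3K4me3 covered whole the sites at Klf9 (chr19:23132694-23137093), a Krüppel-like factor, and within Ahdc1 (chr4:133048885-133053289). It covered 3676 bp of the Casz1 site described below, 3659 of 4322 bp at Fstl3 and Prss57, and 3581 of 4049 bp at Glyr1 and Rogdi. The Klf9 and Ahdc1 sites were also covered by P17 SOX9, at 4400 and 4405 bp, and by P17 SOX8, at 3714 and 4405 bp. The Glyr1 and Rogdi site had neither factor.

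The P17 share also differed with where a site lay and how wide it was. SOX9 was at 102 of 547 sites in a gene body (18.6%, 15.6 to 22.1) and at 23 of 331 between genes (6.95%, 4.67 to 10.2), and P17 H3K27ac was at 72.2% and 59.2%. By distance from a gene end, P17 SOX9 was at 16.2% of sites with an end inside, 24.7% under 5 kb, 14.3% from 5 to 50 kb and 7.69% farther out. In equal classes by width, P17 SOX9 overlapped 8.22% of the 292 narrowest sites (708 to 2466 bp), 14.3% of the 293 in the middle and 20.1% (15.9 to 25.1) of the 293 widest (3256 to 9944 bp). How much of this order width alone gives was not tested. P17 H3K27ac showed no such order by width, at 67.5%, 67.9% and 66.6%. P17 H3K4me3 had the opposite order, at 17.5%, 9.90% and 6.14% from the narrowest to the widest class.

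The 10 widest sites lay at Casz1, Lrp8, Barhl2, Coro2b, Pmepa1, Sdccag8, Bahcc1, Arid1b, Enpp7 and Gse1. The widest of all (chr4:148913481-148923424, 9944 bp) was inside Casz1, a zinc finger factor of retinal progenitors. It shared 7723 bp with P17 SOX9, and H3K27ac filled its 20 kb window at both ages. At Barhl2, a homeobox gene of amacrine and ganglion cells, the site (chr5:106464899-106473070, 8172 bp) had 4 separate P2 H3K27ac peaks over 50.3% of its length and no P17 SOX peak. P17 H3K27ac covered 90.1% of it, and the length in the window was 4.16 kb at P2 and 7.37 kb at P17. The site in Coro2b, a coronin of the actin cytoskeleton (chr9:62464097-62471825, 7729 bp), shared 3219 bp with P17 SOX9 and had a full window at both ages. That in Sdccag8, a centrosomal protein gene (chr1:176992118-176999418, 7301 bp), had a full window at both ages without a P17 SOX peak.

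In Arid1b, a subunit gene of the BAF chromatin remodelling complex, P17 H3K27ac covered 99.5% of the site (7174 bp) with no P17 SOX peak. H3K27ac in its window went from 20 kb at P2 to 12.6 kb at P17. The sites in Pmepa1, at Enpp7 and in Bahcc1 also had less of the mark at P17. In Pmepa1, whose product restrains TGF-beta signalling, the site (chr2:173236033-173243653, 7621 bp) was covered whole at P2 by an H3K27ac peak of 59964 bp and by none at P17. The Enpp7 site (chr11:118993633-119000384, 6752 bp; an intestinal sphingomyelinase gene) was 92.8% covered at P2 and overlapped no P17 peak. In Bahcc1, which encodes a reader of H3K27me3, the site (chr11:120257395-120264647, 7253 bp) had both factors at P17, SOX9 over 4314 bp and SOX8 over 2775 bp. H3K27ac in its window went from 18.3 kb at P2 to 1.79 kb at P17. Of these 10 sites, 5 had P17 SOX9, 3 had P17 SOX8 and 8 had P17 H3K27ac. They were picked by width. Over all 878 sites the shares were 14.2%, 10.9% and 67.3%, and over the 293 widest they were 20.1%, 18.4% and 66.6%.

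The 10 widest sites with P17 SOX9 began with those at Casz1, Lrp8, Coro2b, Bahcc1 and Gse1. The next was near Scarb1, the HDL receptor gene (chr5:125264177-125270163, 5987 bp), with 4064 bp of P17 SOX9 and 4492 bp of P17 SOX8. The site near Egfl7, a secreted factor of endothelial cells (chr2:26571671-26577401, 5731 bp), shared 1984 bp with P17 SOX9 and had no P17 H3K27ac. Those in Glis2, a Krüppel-like zinc finger gene, and Thra, the thyroid hormone receptor alpha gene, shared 3888 and 4183 bp and were covered whole by P17 H3K27ac. The site over Flrt1 and Macrod1 shared only 999 of 5556 bp. The 5 widest with P17 SOX8 were at Lrp8, Bahcc1, Gse1, Scarb1 and Dkk3, and the Dkk3 site (chr7:112127938-112133740, 5803 bp) shared 2734 bp with SOX8 and none with SOX9. P17 H3K27ac filled the whole 20 kb window of 73 sites, of which the 5 widest were at Casz1, Coro2b, Sdccag8, Gse1 and Slc6a9, and P2 H3K27ac filled that of 88.

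The nearest protein-coding genes numbered 790, or 3.61% of the 21887. Of these, 700 were nearest to 1 site, 67 to 2 and 23 to 3 or more. Gse1 had 11 sites, Casz1 and Zfp608 5 each, Bahcc1, Celf4, Mycn and Nfix 4 each, and Ahdc1, Anxa1 and Bcor were among those with 3. When sites within 50 kb of each other were joined, 660 stood alone, 73 groups held 2 and 21 groups held 3 or more, together 72 sites. The longest run was 7 sites over 145 kb in Gse1, followed by 5 over 113 kb in Casz1.

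Gse1, which encodes a coiled-coil protein found with LSD1 corepressor complexes, held 11 sites of 2533 to 6557 bp inside its body (chr8:120228501-120581383). They are 11 of the 19 P2 SOX9 peaks over the gene. P17 SOX9 overlapped 9 of them and P17 SOX8 overlapped 6, P17 H3K27ac overlapped all 11, and P17 H3K4me3 none. The widest (chr8:120291242-120297798) shared 4846 bp with P17 SOX9 and 6243 bp with P17 SOX8. P2 H3K27ac took up 16.9 to 20 kb of each window and P17 H3K27ac 17.8 to 20 kb, so the mark was near full length at both ages. Over the gene body there were 3 P2 and 5 P17 H3K4me3 peaks, and 50 P2 and 15 P17 H3K27ac peaks.

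**Figure D4:**
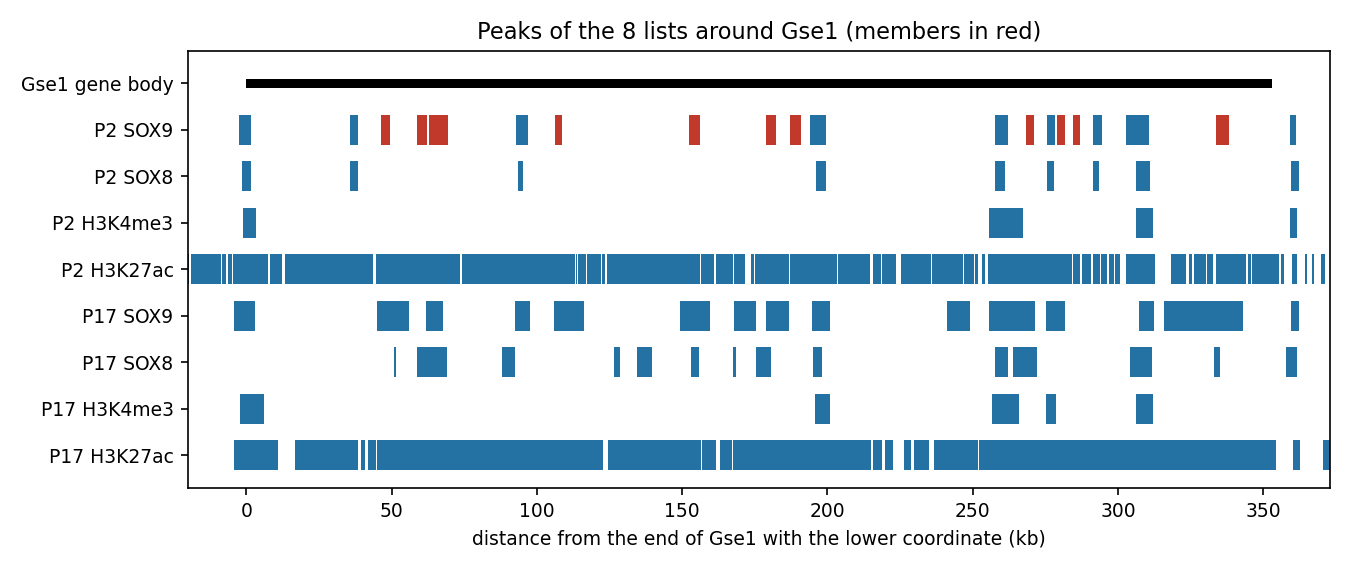
Peaks of the 8 lists around Gse1, drawn as boxes by list against distance in kb from the end of the gene with the lower coordinate; the gene body is black and the 11 sites are red. P17 SOX9 peaks lie over 9 of the red boxes, and P17 H3K27ac covers all 11.

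Casz1 held 5 sites of 2089 to 9944 bp, and 1 P2 H3K27ac peak of 126890 bp lay over 4 of them. P17 SOX9 overlapped 3, P17 H3K4me3 2, P17 SOX8 none and P17 H3K27ac all 5. Each of the 5 windows was full of H3K27ac at both ages. Nfix, a nuclear factor I gene active in glial development, held 4 sites over 47.5 kb. The sites at chr8:84737239-84740351 and chr8:84742797-84745271 were wholly within P17 SOX9, and P17 H3K27ac overlapped all 4, with 15.3 to 18.7 kb in the window. Of the 4 sites at Bahcc1, all had P17 H3K27ac and 1 had P17 SOX9 and SOX8. Ahdc1 had 3 sites, of which 1 had P17 SOX9, 2 had P17 SOX8 and all had P17 H3K27ac.

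At Mycn, Zfp608, Celf4, Anxa1 and Bcor, also among the 10 genes with the most sites, no site had a P17 SOX9 peak. The 4 sites nearest to Mycn, a proto-oncogene of proliferating progenitors, lay 30.2 to 209 kb from the gene. P17 H3K27ac overlapped 3 of them, and its length in the windows went from 11.7 to 16.4 kb at P2 to between 0 and 6.05 kb at P17. Zfp608, a zinc finger gene, had 5 sites spread over 662 kb, of which 1 was in the gene body and 4 had P17 H3K27ac. At Celf4, which encodes a neuronal RNA-binding protein, P17 H3K27ac covered all 4 sites whole, with 18.5 to 20 kb in the windows. Anxa1, a phospholipid-binding annexin gene, had 3 sites at 26.7 to 362 kb, all with P17 H3K27ac. Of 3 at Bcor, a corepressor gene of a Polycomb complex, 1 had P17 SOX8 and all had P17 H3K27ac.

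**Figure D5:**
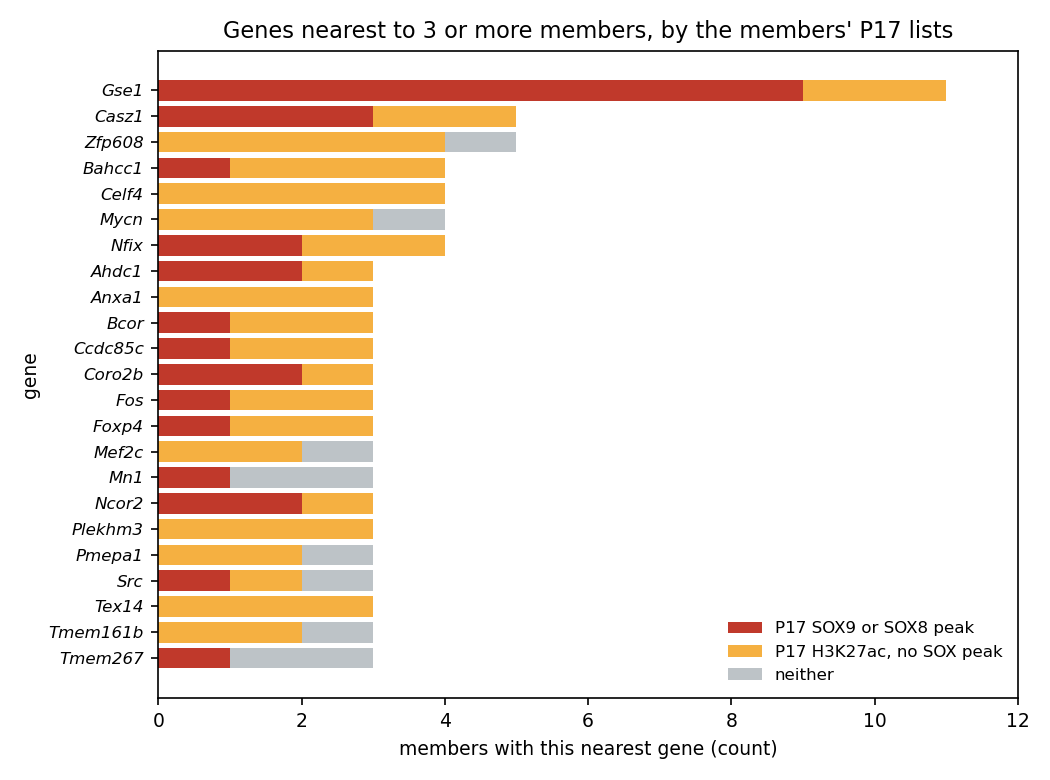
Number of sites for each of the 23 genes nearest to 3 or more of them, split by P17 state: a P17 SOX9 or SOX8 peak (red), P17 H3K27ac without either (yellow) or neither (grey). Gse1 has 11 sites and 9 with a P17 SOX peak, whereas none of the 5 at Zfp608 has one.

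The promoters of the nearest genes were read where the promoter table held them, for 596 of the 790. A P2 SOX9 peak overlapped the promoter window of 338 (56.7%, background over all 17492 genes with a window 22.9%). Some of those peaks are the sites themselves, and with P2 SOX9 peaks other than the sites the count was 203 (34.1%, 30.4 to 37.96; background 22.1%). P2 SOX8 was at the promoter of 123 (20.6%, background 12.2%) and P2 H3K4me3 at 306 (51.3%, 47.3 to 55.3; background 44.8%). Promoter windows of 143 genes lay wholly inside sites, and by the rule those windows cannot overlap P2 SOX8 or P2 H3K4me3. Part of these 2 shares is therefore fixed by the choice. The P17 counts that follow include P17 peaks at the sites themselves. At P17, SOX9 was at 147 (24.7%, background 10.3%), SOX8 at 100 (16.8%, background 8.44%) and H3K4me3 at 336 (56.4%, background 46.1%). The nearest genes thus included many with an H3K4me3 promoter and many without, and at P2 part of the latter follows from the rule.

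Genes of 15 lists on retinal cell types, signalling and SOX biology were then looked up. Of their 270 genes, 43 (15.9%) were nearest to a site, with 54 sites between them, where 3.61% of all protein-coding genes were. The counts for each list below are to be read beside that 3.61%. They are a description, since the lists were chosen with results known. P17 SOX9 overlapped 3 of the 54 sites (5.56%, against 14.2% of all 878) and P17 SOX8 4 (7.41%, against 10.9%). P17 H3K27ac overlapped 23 (42.6%, against 67.3%) and P17 H3K4me3 none (against 11.2%).

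Of 28 Müller glia genes, 10 were nearest to a site, among them Slc1a3, Dkk3, Sox2, Sox8, Sox9, Hes1, Nfib, Nfix and Id3. They had 16 sites, 8 with P17 H3K27ac, 2 with P17 SOX9 (both in Nfix) and 1 with P17 SOX8 (in Dkk3). The site nearest to Sox9 itself (chr11:112810606-112812569, 1964 bp) lay 22.8 kb from the gene, had 11.8 kb of P2 H3K27ac in its window and was in no P17 list. That nearest to Sox8 (chr17:25560737-25563824, 3088 bp) lay 2.07 kb from the gene and was 34.1% covered by P17 H3K27ac. At Slc1a3, the glial glutamate transporter gene, the site (chr15:8630662-8632952) lay 1.17 kb from the gene and had 17.5 kb of P2 H3K27ac in the window and none at P17. Dkk3, a secreted Dickkopf-family protein gene of Müller glia, had a second site (chr7:112169918-112172836) whose window held 17.4 kb at P2 and none at P17. Id3, an inhibitor of bHLH factors, had 2 sites with 19.2 and 17.2 kb at P2, and with none and 9.05 kb at P17.

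Of 24 retinal progenitor genes, 10 were nearest to a site, among them Sox2, Hes1, Hes5, Notch1, Foxn4, Nr2e1, Meis1 and Mki67. P17 H3K27ac overlapped 4 of their 12 sites (among them those at Notch1 and Meis1 and 1 of 2 at Hes5), P17 SOX8 1 and P17 SOX9 none. Sox2, a SoxB1 factor of progenitors and Müller glia, had 2 sites far from the gene, at 203 and 526 kb. The nearer (chr3:34440990-34446646, 5657 bp) had 15.3 kb of P2 H3K27ac in the window, the farther 5.07 kb, and both had none at P17. Hes5, a Notch target, had 2 sites at 10.4 and 6.03 kb. P17 SOX8 covered 1353 bp of the first (chr4:154947994-154950237), and the windows went from 11.9 and 15.7 kb at P2 to 5.26 and 9.60 kb at P17. The Foxn4 site, at a forkhead regulator of progenitors, had 20 kb at P2 and none at P17.

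The 4 sites at photoreceptor genes went the other way. Otx2 (2 sites), Prdm1 and Neurod1, regulators of photoreceptor precursors, were 3 of 24 genes on that list, and all 4 sites had P17 H3K27ac without a P17 SOX peak. The Otx2 sites (chr14:48608244-48610188 and chr14:48650922-48656244) lay 46.6 and 0.54 kb from the gene, and their windows went from 12.7 and 7.55 kb at P2 to 18.7 and 12.6 kb at P17. The Prdm1 window went from 12.8 to 18.2 kb and the Neurod1 window from 8.59 to 13.5 kb. All 4 were thus longer at P17, where 190 of the 878 were with the full P2 list. With only the widest 29909 P2 peaks, 305 of the 878 were longer at P17. The sites of the amacrine and horizontal cell list below were longer at P17 as well.

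The other cell type lists are shorter, so shares are given with the counts, beside 12.5% for the photoreceptor list. The bipolar cell list had 3 of 14 genes (21.4%), Prkca, Irx5 and Irx6, and none of their 3 sites overlapped a P17 peak. The amacrine and horizontal cell list had 2 of 18 (11.1%), Slc6a9 and Barhl2, both with P17 H3K27ac. Their windows went from 16.5 and 4.16 kb at P2 to 20 and 7.37 kb at P17. The retinal ganglion cell list had 0 of 18. The vascular, microglial and astrocyte list had 3 of 21 (14.3%), Kdr, C1qa and Pdgfra, with P17 H3K27ac at 1 of the 3 sites. The retina was not sorted, so a site cannot be assigned to a cell type, and fewer cells of a type cannot be told apart from weaker signal per cell.

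Among signalling genes, the Notch pathway had 6 of 25: the receptor gene Notch1, the ligand gene Dll1, the coactivator gene Maml3, the targets Hes1 and Hes5, and the feedback inhibitor Nrarp. Their 7 sites had P17 H3K27ac at 3 and P17 SOX8 at 2, the latter at Hes5 and Nrarp (4133 of 5004 bp). The BMP and TGF-beta pathway had 6 of 31 and 10 sites: the ligand gene Bmp7, the receptor gene Tgfbr1, and Smad6, Pmepa1, Id2 and Id3, which act as inhibitors or targets. P17 H3K27ac was at 3 of the 10 and P17 SOX8 at 1. That site lay at the end of Bmp7 (chr2:172937149-172941472, 4324 bp), with 2853 bp of P17 SOX8, and the other Bmp7 site, 138 kb from the gene, was in no P17 list. The 3 Pmepa1 sites had 10.9 to 20 kb in the window at P2 and 2.70 to 5.44 kb at P17. The Wnt list had 3 of 27 (Tcf7l2, Lgr4 and Dkk3) and the FGF and EGF receptor list 2 of 16 (Fgfr3 and Etv4).

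The SOX list had 4 of 13, namely Sox2, Sox6, Sox8 and Sox9, with 5 sites, 1 of them with P17 H3K27ac. Nuclear factor I genes had 2 of 4, Nfib and Nfix, and P17 H3K27ac was at 4 of their 5 sites. The site near Nfib (chr4:82511164-82513985) lay 4.41 kb from the gene and had 7.11 kb of H3K27ac in its window at P2 and none at P17. Of 14 cartilage genes bound by SOX9 in chondrocytes, Col9a2 and Sox6 had 1 site each, in no P17 list. The list of nuclear positioning genes had 0 of 15.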

How the data were processed

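Nuclei of wild-type mouse retina at P2 and P17 were processed by CUT&RUN, and 8 deposited peak lists, 1 per target and age, were used. Per the submitters' processing notes, Bowtie2, SEACR and the build GRCm38 were used; versions, thresholds, the use of the IgG libraries and the pooling of replicates are not given in the sources used here. Each deposited file holds peak positions, and the score that the authors deposited is 0 in every peak. Depth per library is not given either, so the depth behind a missing peak is unknown. Sites were chosen by an overlap of 1 bp, computed with Python 3.11.15, pandas 2.3.3, numpy 2.4.6 and scipy 1.17.1, checked against bedtools 2.31.1 and on simulated peaks. Genes were the 21887 protein-coding genes of the RefSeq table (GRCm38.p6): the nearest gene is any gene overlapped, otherwise the closest body, and all distances to a gene end take either end, because this table gives no strand. Promoter windows were found for 17492 of these genes, none of them on chromosome 18, and the others were not used. The text names the genes at the widest sites, at the widest sites of each P17 state, with the most sites, or on the 15 lists; a few genes under this rule are not reported here. Members and lists were chosen with earlier results of these data known. Shares have Wilson intervals and differences Newcombe intervals, both at 95%. No test over replicates could be made, since no list names one.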

Additional observations from a re-analysis of the deposited data

How the results depend on the processing

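For the 10 values on which the text rests (the number of sites, the 5 overlap shares, the 2 coverages, the share in a gene body and the distance to a gene end), 69 alternatives were computed: 55 stayed within the interval of the value (for the number of sites, within 1.5 times), 14 did not, and none reversed. Without sites that had a gene end within 1 kb of the centre, P17 H3K4me3 was at 7.25%, a gene body at 55.6%, and the distance was 19.2 kb; without sites that held a gene end, a setting chosen after seeing the data, these were 7.10%, 53.9% and 21.3 kb. With the wider 50% of the P2 SOX9 list, 512 sites remained, with P17 SOX9 at 17.2%, P17 SOX8 at 15.04%, P17 H3K4me3 at 8.40% and a median P17 H3K27ac coverage of 79.8% (85.9% over all sites). With sites trimmed to 500 bp, P2 H3K27ac was at 95.7% and the median P17 coverage was 100%. With the widest P2 H3K27ac peaks in the number of the P17 list, P2 H3K27ac was at 71.4%. Counting genes within 50 kb of a site in place of nearest genes gave 5 genes for the vascular, microglial and astrocyte list, 5 for Wnt and 2 for nuclear positioning. By that rule 1710 of all protein-coding genes (7.81%) lay within 50 kb of a site, and these counts are to be read beside that share. No paired analysis was possible because the lists name no replicate, and for the same reason no library could be left out. Absence from a list is not absence of binding. The 2 SOX8 lists rest on more libraries than the SOX9 lists and on 2 antibodies, combined in a way that is not given. The cause of each shift other than the smaller set of sites or peaks was not tested.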
